A study of Mus musculus with 10 samples.

Results

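The genes described here are 10 markers of melanocytes and of the intermediate cells of the stria vascularis, chosen by name from the 27179 gene IDs of a count table made from mouse cochleas. They are the pigment enzyme genes Tyr, Tyrp1 and Dct, the melanosome genes Pmel, Mlana and Slc45a2, the transcription factor genes Mitf and Pax3, and the receptor genes Kit and Ednrb. All 10 were found in the table. The sequenced RNA came from whole cochleas at 8 days after birth, in 5 libraries labelled Pknox2+/+ (wild type) and 5 labelled Pknox2-/- (knockout), which the series text calls independent biological samples. The sources used here do not give the strain, how the allele was made or whether a library pools animals. The question is whether transcripts of this cell lineage differ in level between cochleas with and without the homeobox gene Pknox2.

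Melanocytes arise from the neural crest, and some of them settle in the stria vascularis, the epithelium in the lateral wall of the cochlea that secretes potassium into the endolymph. There they become the intermediate cells, whose potassium channel KCNJ10 is needed for the endocochlear potential. Mice that lack melanocytes in the stria, as in severe mutants of Mitf, Kit or Ednrb, are deaf. Pigment itself is made in melanosomes, where tyrosinase starts the pathway and the related enzymes TYRP1 and DCT act on later steps. MITF drives many genes of the lineage and is known to bind the sequence TCATGTG, the core of the M-box, in promoters of the tyrosinase family.

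Promoters of 6 of the 10 genes were matched in a RefSeq table of GRCm38.p6, as windows of 300 bases that run from 250 bases before to 50 bases after an annotated start. Those of the tyrosinase family are shown for the element that they share. Capitals mark TCATGTG or its reverse complement CACATGA.
Tyr: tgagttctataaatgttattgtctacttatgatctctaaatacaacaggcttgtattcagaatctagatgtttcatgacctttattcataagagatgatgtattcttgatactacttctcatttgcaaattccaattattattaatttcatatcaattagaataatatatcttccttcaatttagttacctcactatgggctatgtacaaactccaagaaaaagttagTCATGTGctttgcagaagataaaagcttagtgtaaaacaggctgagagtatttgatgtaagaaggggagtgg
Tyrp1: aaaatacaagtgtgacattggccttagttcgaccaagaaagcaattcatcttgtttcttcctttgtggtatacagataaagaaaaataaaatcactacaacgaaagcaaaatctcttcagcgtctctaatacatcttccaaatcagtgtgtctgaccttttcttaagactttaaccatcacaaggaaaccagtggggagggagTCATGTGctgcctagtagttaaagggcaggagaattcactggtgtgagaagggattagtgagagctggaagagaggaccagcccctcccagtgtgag
Dct: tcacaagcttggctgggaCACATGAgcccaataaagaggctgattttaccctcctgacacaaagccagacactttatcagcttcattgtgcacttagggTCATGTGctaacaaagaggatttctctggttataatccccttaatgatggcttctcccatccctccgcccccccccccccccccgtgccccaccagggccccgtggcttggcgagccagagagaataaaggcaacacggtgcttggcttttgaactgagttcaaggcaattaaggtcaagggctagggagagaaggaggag

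The windows lie at chr7:87493463-87493762 on the minus strand for Tyr, chr4:80833963-80834262 on the plus strand for Tyrp1 and chr14:118052197-118052496 on the minus strand for Dct. Counted from the annotated start, the match begins at -22 in Tyr, at -47 in Tyrp1 and at -151 in Dct, which holds a further match on the opposite strand at -232. TCATGTG was found on either strand in 3.77% of the 32851 windows of the table, and in no window of Mitf, Kit or Ednrb. Around the forward match the 3 sequences share a longer run, GTCATGTGCT, which was looked for after the sequences were seen and which 0.186% of the windows hold. A match is a description of the letters and not a site shown to be bound.

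Library totals ran from 16.6 M to 19.4 M counts, and levels are given as CPM, counts per 1 M of the library total after TMM scaling. Pknox2 itself was not lower in the knockout libraries, at 19.9 ± 1.96 CPM in wild type and 21.1 ± 4.38 CPM in knockout (SD, n = 5 each), so its level does not check the labels. Which exons the allele removes is not known here. Markers of the main cochlear cell types were present in both groups, with Otof of hair cells at 26.0 to 46.1 CPM and Kcnq1 of strial marginal cells at 42.8 to 64.3 CPM over the 10 libraries. Knockout 2, 3 and 5 stood apart from the other libraries, with scores of 73.5, 41.2 and 45.1 on the first principal component of all tested genes, against -42.3 to 2.77 in the other libraries. The sex makeup also differed between the groups, since the sum of 4 Y-linked genes (Uty, Kdm5d, Eif2s3y and Ddx3y) was 209 CPM in knockout 1, at most 11.3 CPM in the other knockout libraries and 102 CPM or more in every wild-type library. Log2 fold changes of the tested melanocyte genes are therefore given also without knockout 2, 3 and 5, which leaves knockout 1 and 4 on that side. They are given as well with Y-linked expression in the model. Since only knockout 1 among the knockout libraries had high Y-linked expression, that model can hardly separate sex from genotype.

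The lineage was readily detected in every library, and its genes spanned a wide range of levels. Per length, as CPM per kilobase of the longest GENCODE transcript, Dct stood first among the 10 at 153 ± 22.7 in wild type and 143 ± 13.7 in knockout (SD, n = 5 each). Only 2.28% of the 14987 tested genes with a known length were above it in wild type. Ednrb came next at 23.8 ± 4.34 in wild type, and its wild-type range lay apart from those of Dct and Kit.

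Kit at 8.79 ± 1.04, Slc45a2 at 8.23 ± 0.572 and Mitf at 7.02 ± 0.82 CPM per kilobase followed in wild type (SD, n = 5 each). The ranges of neighbours among these 3 overlapped, and all lay near the middle of the tested genes. Tyr at 4.28 ± 0.9, Mlana at 3.75 ± 1.03 and Pmel at 2.47 ± 0.651 formed the next step, again with overlapping neighbours. Pax3 at 0.484 ± 0.12 and Tyrp1 at 0.2 ± 0.152 stood last, and their wild-type ranges overlapped. Tyr has a long transcript of 6042 bases, of which 1599 are coding, and per kilobase of coding length it moved from place 6 to place 4, at 16.2 ± 3.4. The first, second and last places did not depend on which length was used.

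**Figure D1:**
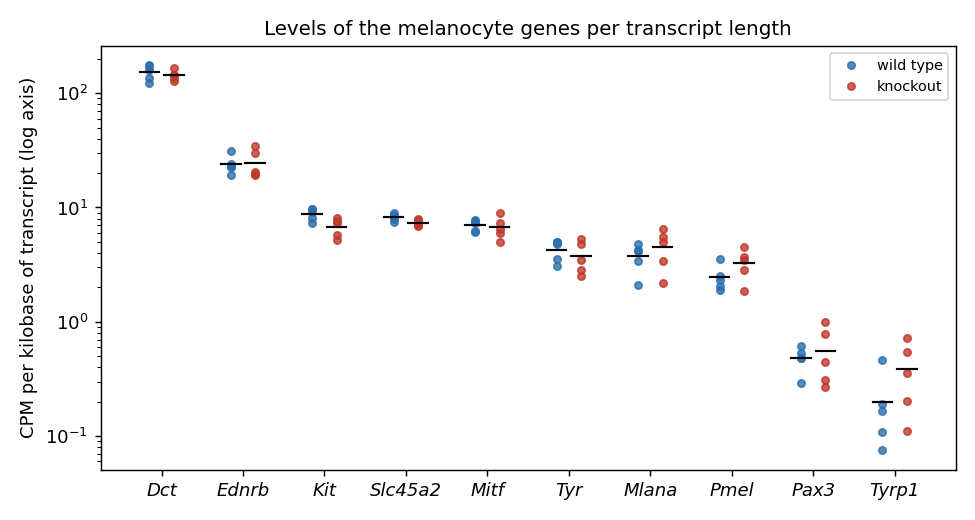
Level of each melanocyte gene in CPM per kilobase of transcript on a log axis, ordered by the wild-type mean, with a point for each of the 5 wild-type (blue) and 5 knockout (red) libraries and a black line at the group mean. Dct, at 153 in wild type, stands above all others, and Tyrp1, at 0.2, lies lowest.

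Within the tyrosinase family, Dct exceeded Tyr per transcript length by 27.1-fold to 51.0-fold over the 10 libraries, and by 13.6-fold on average in wild type per coding length. Dct exceeded Tyrp1 by at least 177-fold in every library. The promoters of all 3 genes carry the M-box core shown above, and its part in these levels was not tested. Tyrp1 rested on only 4 to 32 reads per library, against 4592 to 7597 reads for Dct, so ratios to Tyrp1 are imprecise. At this depth Tyrp1 was detected but near the lower limit of what the libraries can measure.

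None of the 9 melanocyte genes that could be tested was called different between the groups by edgeR's quasi-likelihood test at an adjusted p under 0.05, where 0.0187% of the 16018 tested genes were called (0.00624% higher and 0.0125% lower in knockout). Tyrp1 did not pass the filter on low counts. At an unadjusted p under 0.05 the count was 1 of 9, for Kit, which was lower in knockout. Of all tested genes 20.1% reached that value, 8.66% lower and 11.4% higher in knockout. DESeq2 and limma-voom also called 0 of the 9, where DESeq2 called 2.07% and limma-voom 0.0187% of all tested genes. The median log2 fold change (knockout minus wild type) was -0.05 over the 9, with 5 below 0 and 4 above. It was -0.014 over all tested genes, of which 51.7% were below 0. In none of the 10 genes did the 5 knockout libraries lie wholly outside the wild-type range, which occurred in 2.37% of tested genes. In whole-cochlea RNA, fewer cells of a type and less RNA per cell cannot be told apart.

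**Figure D2:**
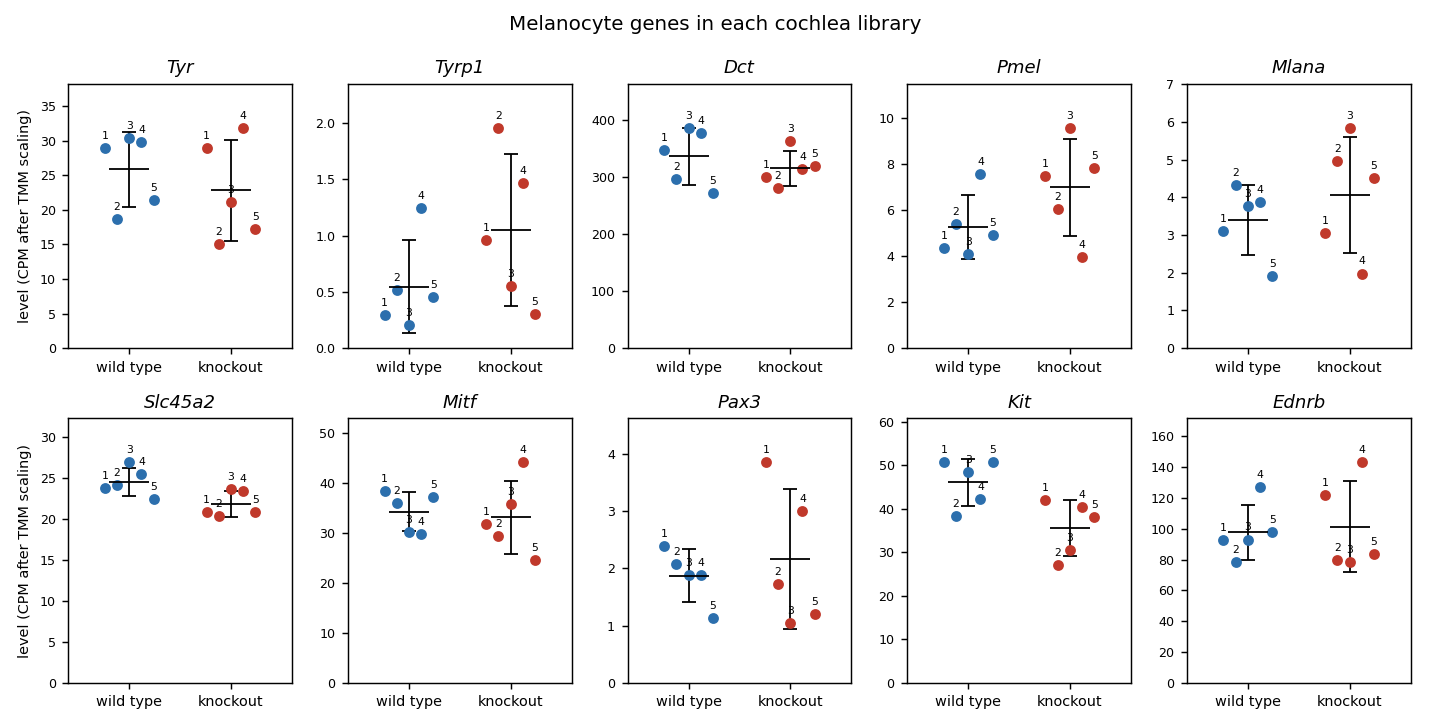
Level of each melanocyte gene in CPM in the 5 wild-type (blue) and 5 knockout (red) libraries, each point numbered by its replicate, with the group mean and SD in black and every axis starting at 0. The groups overlap in all 10 genes, and Slc45a2 has the tightest groups, at 24.6 ± 1.71 and 21.8 ± 1.56 CPM.

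Tyr (Entrez 22173, chromosome 7, 87424771 to 87493512, GRCm38) encodes tyrosinase, the rate-limiting enzyme of melanin synthesis. Its level was 29.0, 18.7, 30.4, 29.9 and 21.4 CPM in wild type 1 to 5, and 28.9, 15.1, 21.1, 31.9 and 17.2 CPM in knockout 1 to 5. Knockout 2 and 5 lay below every wild-type library and knockout 4 above every one, so the groups overlapped at both ends. Its log2 fold change was -0.18 (SE 0.22, 95% interval -0.66 to 0.30, adjusted p = 0.61, edgeR quasi-likelihood test), and it was 0.23 without knockout 2, 3 and 5 and 0.16 with Y-linked expression in the model.

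Dct (Entrez 13190, chromosome 14, 118012790 to 118052246) encodes dopachrome tautomerase and is an early marker of the lineage. It stood at 348, 297, 387, 378 and 273 CPM in wild type and at 301, 281, 363, 315 and 319 CPM in knockout. Every knockout value lay inside the wild-type range. Its log2 fold change was -0.092 (SE 0.12, 95% interval -0.35 to 0.17, adjusted p = 0.632, edgeR), and -0.13 without knockout 2, 3 and 5 and -0.022 with Y-linked expression in the model.

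Tyrp1 (Entrez 22178, chromosome 4, 80834123 to 80851736), whose product stabilises tyrosinase and acts in eumelanin synthesis, was the rarest. It was read 5, 9, 4, 22 and 8 times in wild type 1 to 5 and 17, 32, 9, 26 and 5 times in knockout 1 to 5, or 0.545 ± 0.414 and 1.05 ± 0.676 CPM (SD, n = 5 each). Knockout 2 and 4 were above every wild-type library, while knockout 5 was close to the lowest. With no filter on low counts, its log2 fold change was 0.94 (SE 0.542, adjusted p = 0.362 over 21807 genes, edgeR).

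Among the melanosome genes, Pmel and Mlana had positive and Slc45a2 a negative fold change, none of them called. Pmel (Entrez 20431, chromosome 10, 128695888 to 128720238), which encodes the protein of the fibrils on which melanin is laid down, was at 4.36, 5.37, 4.07, 7.57 and 4.92 CPM in wild type and at 7.47, 6.06, 9.57, 3.97 and 7.83 CPM in knockout. Knockout 3 and 5 were above every wild-type library, and knockout 4 was below every one. For Pmel the log2 fold change was 0.41 (SE 0.244, 95% interval -0.12 to 0.94, adjusted p = 0.315, edgeR), and it was 0.12 without knockout 2, 3 and 5 and 0.48 with Y-linked expression in the model. The annotated span of Pmel contains that of Cdk2 and touches those of Rab5b and Dgka, and whether counting used strand is unknown, so the count of Pmel is uncertain.

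Mlana (Entrez 77836, chromosome 19, 29697541 to 29708447) encodes the small melanosomal membrane protein also known as MART-1. It stood at 3.1, 4.33, 3.77, 3.87 and 1.92 CPM in wild type and at 3.06, 4.96, 5.85, 1.98 and 4.51 CPM in knockout. Knockout 2, 3 and 5 lay above every wild-type library, and the other knockout libraries lay within the wild-type range. The log2 fold change of 0.26 (SE 0.299, 95% interval -0.39 to 0.91, adjusted p = 0.587, edgeR) changed sign to -0.43 without those 3 libraries, and it was 0.21 with Y-linked expression in the model.

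Slc45a2 (Entrez 22293, chromosome 15, 11000721 to 11029233), a melanosomal transporter gene, was at 23.8, 24.2, 26.9, 25.5 and 22.4 CPM in wild type and at 20.9, 20.4, 23.7, 23.4 and 20.9 CPM in knockout. Its level differed by at most 1.32-fold between any 2 libraries, less than for any other of the 10 genes, and all 5 knockout libraries were below the wild-type median. The log2 fold change was -0.17 (SE 0.0988, 95% interval -0.38 to 0.046, adjusted p = 0.308, edgeR). It was -0.15 without knockout 2, 3 and 5 and -0.16 with Y-linked expression in the model.

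Of the transcription factors, Mitf was expressed at a moderate level, with a 1.79-fold range over the libraries, and Pax3 at a low one. Mitf (Entrez 17342, chromosome 6, 97807002 to 98021360) stood at 38.3, 36.0, 30.2, 29.8 and 37.1 CPM in wild type and at 31.8, 29.3, 35.8, 44.1 and 24.6 CPM in knockout. Knockout 4 was the highest of all libraries and knockout 5 the lowest. Its log2 fold change was -0.05 (SE 0.152, 95% interval -0.38 to 0.28, adjusted p = 0.848, edgeR), and 0.15 without knockout 2, 3 and 5 and -0.13 with Y-linked expression in the model. Mitf has several promoters, of which the RefSeq table holds 3, and one of its forms is particular to melanocytes, while a count per gene adds the forms together.

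Pax3 (Entrez 18505, chromosome 1, 78101267 to 78197136), a paired-box factor of the neural crest that acts with SOX10 on Mitf, was at 2.39, 2.08, 1.88, 1.88 and 1.13 CPM in wild type and at 3.85, 1.72, 1.04, 3.01 and 1.2 CPM in knockout. Knockout 1 and 4 lay above every wild-type library and knockout 3 below every one. The log2 fold change was 0.21 (SE 0.363, 95% interval -0.58 to 1.0, adjusted p = 0.721, edgeR), the widest interval among the 9, on 17 to 68 reads per library. It was 0.87 without knockout 2, 3 and 5, and 0.96 with Y-linked expression in the model, neither of them called.

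Kit was the member with the smallest p, and it was not called. Kit (Entrez 16590, chromosome 5, 75574987 to 75656722) encodes the receptor of stem cell factor, which melanoblasts need to migrate and survive. It stood at 50.6, 38.4, 48.3, 42.3 and 50.6 CPM in wild type and at 42.0, 27.0, 30.4, 40.3 and 38 CPM in knockout. All 5 knockout libraries were below the wild-type median, and knockout 2, 3 and 5 were below every wild-type library. For Kit the log2 fold change was -0.37 (SE 0.14, 95% interval -0.68 to -0.069, unadjusted p = 0.0201, adjusted p = 0.225, edgeR). It was -0.16 without knockout 2, 3 and 5, -0.25 with Y-linked expression and -0.11 with the first component in the model, each with an adjusted p of 0.766 or more.

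Ednrb (Entrez 13618, chromosome 14, 103814615 to 103844508) encodes the endothelin receptor that melanoblasts need during their migration. Its level was 92.9, 78.4, 93.0, 127 and 97.7 CPM in wild type and 122, 79.9, 78.3, 143 and 83.7 CPM in knockout. The knockout libraries fell into a high pair, 1 and 4, and 3 low ones near the lowest wild type. The log2 fold change was 0.054 (SE 0.188, 95% interval -0.35 to 0.46, adjusted p = 0.866, edgeR), and 0.44 without those 3 and 0.22 with Y-linked expression in the model, again not called.

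**Figure D3:**
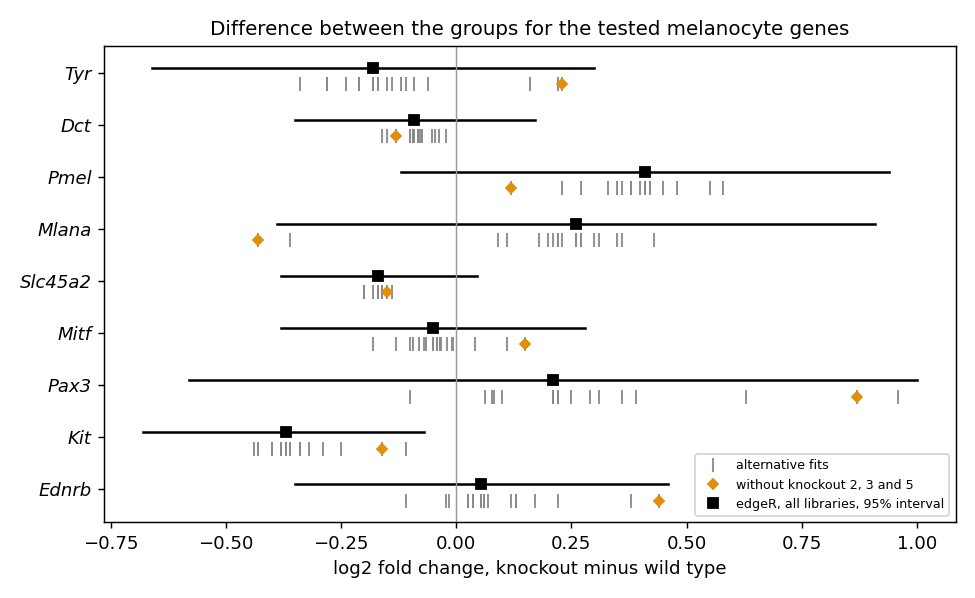
Log2 fold change (knockout minus wild type) of the 9 tested melanocyte genes, with the 95% interval of the edgeR fit on all libraries in black, each alternative fit as a grey tick and the fit without knockout 2, 3 and 5 as an orange diamond. The interval of every gene but Kit includes 0, and for Tyr, Mlana and Mitf the orange diamond lies on the other side of 0.

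The 10 genes did not vary as a block over the libraries. Of the 45 pairs, 26 had a Pearson correlation of log2 CPM above 0 and 19 below, with a median of 0.13 over the 10 libraries. Among the 6 genes of pigment enzymes and melanosomes, 7 of 15 pairs were above 0 and the median was -0.0072. All points share the same libraries and their scaling, so these values are descriptions without a test.

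Dct and Slc45a2 varied together (r = 0.74, rho = 0.68), also within the groups (r = 0.81 with the group means removed), and r was 0.47 without the 2 libraries farthest from the median of Dct. Tyr varied with Ednrb (r = 0.77, rho = 0.76) more closely than with Dct (r = 0.55, rho = 0.52). Without the 2 libraries farthest from the median of Tyr, r with Ednrb was 0.75. Without the 2 farthest from the median of Dct, r of Tyr with Dct was 0.34. These last values leave out libraries chosen by different genes and are not compared. Mlana ran opposite to Kit (r = -0.67, rho = -0.79) and to Ednrb (r = -0.67, rho = -0.78).

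The pairs among Tyr, Kit, Ednrb and Mlana followed the same 4 libraries, while Dct and Slc45a2 did not. Tyr, Kit and Ednrb each had their 4 lowest values in knockout 2, 3 and 5 and wild type 2, and Mlana had its 4 highest values there. Those are the 4 libraries with the highest scores on the first component, that of wild type 2 being 2.77. The same 4 libraries were the lowest in 14.7% and the highest in 13.3% of all tested genes, so the pattern ran well beyond melanocyte genes. The genes lowest in them had a median transcript length of 5882 bases, the genes highest in them 1607 bases and all tested genes 3160 bases. The transcripts of Tyr, Kit and Ednrb have 6042, 5241 and 4107 bases and that of Mlana has 906. Mitf at 4881 bases, Dct at 2202 and Pmel at 2130 did not show the order of these 4 libraries. The part of length in these levels was not tested.

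**Figure D4:**
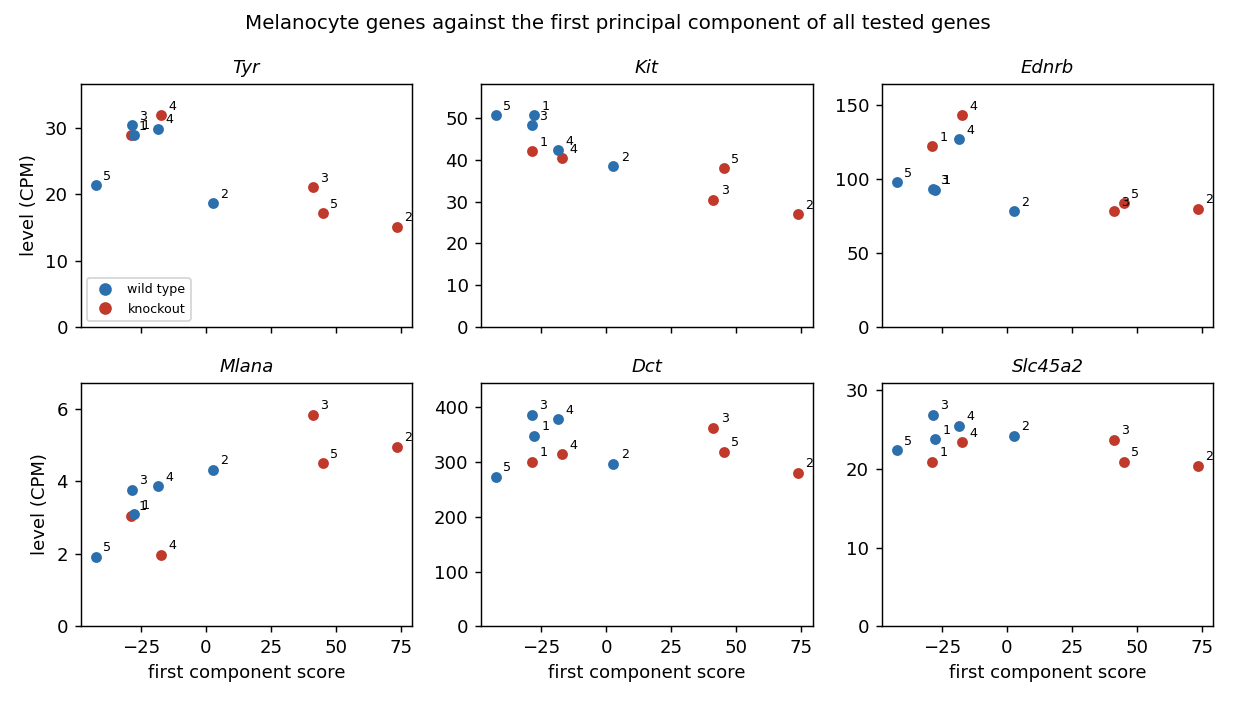
Level of 6 melanocyte genes in CPM (from 0) against the score of each library on the first principal component of all tested genes, with wild type in blue, knockout in red and points numbered by replicate. Tyr, Kit and Ednrb are lowest and Mlana highest in the 4 libraries with the highest scores, while Dct and Slc45a2 show no such order.

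By the rule used for likeness, the genes whose log2 CPM followed the mean of the 6 pigment and melanosome genes most closely over the 10 libraries were Lyplal1 (r = 0.92), Rprm (r = 0.90), Tmem237 (r = 0.89), Ralyl, Poglut1, Pgpep1, Wnt7a and Kirrel3 (r = 0.85). The order rests on Tyrp1, the gene with the fewest reads, since for the mean without it the correlation of Lyplal1 was 0.46 and that of Rprm 0.60.

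The other genes of the pigment pathway gave no called gene either. Of 65 genes on 5 lists (melanosomal proteins, melanosome biogenesis and transport, transcription factors, ligands and signalling, and intermediate cell genes), 61 were tested and 0 called by edgeR, DESeq2 or limma-voom. At an unadjusted p under 0.05, 6 were higher and 3 lower in edgeR, where 11.4% of all tested genes were higher and 8.66% lower. The median log2 fold change over the 61 was -0.07. Without knockout 2, 3 and 5 the medians of 4 lists changed sign, to 0.017 for melanosomal proteins, 0.0081 for transcription factors, 0.041 for ligands and signalling and 0.15 for intermediate cell genes.

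Among 12 other melanosomal proteins 11 were tested, with a median log2 fold change of -0.14. Cd63, a tetraspanin of late endosomes that helps load PMEL into melanosomes, had 0.53 (SE 0.198, adjusted p = 0.223, edgeR), and it is made in many cells. Trpm1, the channel gene first known as melastatin and a target of MITF, had 0.57 (SE 0.262, adjusted p = 0.246). Oca2, the gene of the melanosomal chloride channel, was read 1 to 11 times per library, and Mc1r, the melanocortin receptor gene, 0 to 8 times, while Slc24a5, a melanosomal cation exchanger gene, was at 3.61 ± 0.913 CPM in wild type (SD, n = 5).

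All 24 genes of melanosome biogenesis and transport were tested, and their median log2 fold change was 0.049. Rab38, a small GTPase that delivers TYRP1 and tyrosinase to melanosomes, had 0.47 (SE 0.169, adjusted p = 0.222, edgeR), and Hps1, a subunit of the BLOC-3 complex, had 0.31 (SE 0.134, adjusted p = 0.239). Of the transcription factors, 11 of 12 were tested, with a median of -0.18. Irf4, which acts with MITF on Tyr but is also a factor of lymphocytes, had -0.78 (SE 0.255, adjusted p = 0.214), and Tfeb, a relative of Mitf that controls lysosomal genes, had 0.36 (SE 0.15, adjusted p = 0.236). Irf4 ranged from 5.75 to 15.3 CPM within wild type.

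Of the 13 genes of ligands and signalling, 11 were tested, with a median of -0.15. Adamts20, a protease that melanoblasts need to survive, had -0.86 (SE 0.382, adjusted p = 0.242, edgeR), and its relative Adamts9 had 0.25 (SE 0.113, adjusted p = 0.245). Kitl, the ligand of KIT, stood at 40.5 ± 4.46 CPM in wild type and 32.2 ± 7.4 CPM in knockout (SD, n = 5 each), a log2 difference of -0.33 (SE 0.155, adjusted p = 0.25). Edn3, the ligand of EDNRB in this lineage, was at 11.8 ± 1.8 and 12.5 ± 1.3 CPM, with 0.082 (SE 0.138, adjusted p = 0.716). Adamts20 and Kitl each had their 4 lowest values in knockout 2, 3 and 5 and wild type 2, as had 14.7% of all tested genes. Adamts9 and Edn3 did not.

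The 5 further intermediate cell genes had a median of -0.15. Kcnj10, the potassium channel gene of these cells, which glia also express, was at 190 ± 26.1 CPM in wild type and 151 ± 37.7 CPM in knockout (SD, n = 5 each), a log2 difference of -0.33 (SE 0.164, adjusted p = 0.264, edgeR). Its 4 lowest libraries were again knockout 2, 3 and 5 and wild type 2. Cd44, the hyaluronan receptor gene, had 0.17 (SE 0.0895, adjusted p = 0.283). Kcnj13, another inward rectifier of intermediate cells, was at 3.9 ± 0.813 and 3.44 ± 1.17 CPM, with -0.18 (SE 0.249, adjusted p = 0.653).

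Several of the 10 genes are also made by other cells of the sample, whose markers were read beside them. Of these markers 0 were called by edgeR, and calls by the other tools are not given for them. Glia and vessels are known to make Ednrb, and mast cells and blood precursors Kit. Schwann cell genes summed to 15323 to 19608 CPM in wild type and to 9677 to 13273 CPM in knockout, with all 11 of 11 log2 fold changes below 0, as were 51.7% over all tested genes. Their median of -0.48 was -0.26 without knockout 2, 3 and 5 and -0.24 with Y-linked expression in the model. At an unadjusted p under 0.05 in edgeR, 6 of the 11 were lower and 0 higher, against 8.66% lower and 11.4% higher over all tested genes. Ncmap, a gene of non-compact myelin, had -0.66 (adjusted p = 0.061, edgeR), and Pmp22, of compact myelin, had -0.57 (adjusted p = 0.179). Endothelial genes summed to 400 to 491 CPM in wild type and 434 to 475 CPM in knockout. Of their 7 log2 fold changes 4 were below 0, while Egfl7 had 0.64 and Emcn 0.27. Egfl7 had its 4 highest values in knockout 2, 3 and 5 and wild type 2, as had 13.3% of all tested genes. The endothelial median of -0.17 was 0.019 without knockout 2, 3 and 5. Blood progenitor genes summed to 187 to 227 and 166 to 211 CPM. Their median log2 fold change was -0.18, or -0.46 without knockout 2, 3 and 5. Myb had -0.71 (adjusted p = 0.227, edgeR), at 15.5 to 46.4 CPM in wild type and 14.3 to 24.7 CPM in knockout.

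Mast cells, which carry KIT and MITF, left only 7.23 to 15.6 CPM in wild type and 7.36 to 21 CPM in knockout over 8 genes. Mcpt4 had a log2 fold change of 1.14 (adjusted p = 0.217, edgeR) on 5 to 44 reads per library. Tpsab1 had 0.95 (adjusted p = 0.245, edgeR) on 6 to 30 reads, with its highest values in knockout 2, 3 and 5 and wild type 2. The receptor gene Fcer1a was read at most 5 times per library. The median over the 6 tested mast cell genes was 0.73, but it was -0.16 without knockout 2, 3 and 5 and -0.086 with Y-linked expression in the model. Genes of osteoclasts, which also make Mitf, summed to 2314 to 3744 CPM in wild type and 3862 to 7099 CPM in knockout, with 7 of 8 above 0, among them Dcstamp (1.06, adjusted p = 0.171, edgeR) and Mmp9 (0.71, adjusted p = 0.179). Their median of 0.74 was 0.40 without knockout 2, 3 and 5. At an unadjusted p under 0.05 in edgeR, 7 of the 8 osteoclast genes were higher and 0 lower, against 11.4% higher over all tested genes. Of the 16018 tested genes 7734 had a log2 fold change above 0. Of the pigment epithelium of the eye, a further tissue that makes Tyr and Dct, Rpe65 was read at most 2 times and Rgr at most 3 times per library. The other genes of that list summed with them to 39.5 to 56.0 CPM, of which Rlbp1 made up 31.4 to 48.0 CPM, with a log2 fold change of -0.031, while Best1 had 0.71. The median of that list was -0.26 without knockout 2, 3 and 5. The part of these cells in the levels of Kit, Ednrb and Mitf was not tested.

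The neighbours of the intermediate cells in the stria had no gene called by edgeR either. Marginal cell genes, all 12 tested, had a median log2 fold change of -0.0014. Slc12a2, the potassium and chloride cotransporter gene, had -0.44 (adjusted p = 0.257, edgeR), and Lrp2, the megalin gene, had -0.33 (adjusted p = 0.329). Slc12a2 had its 4 lowest values in knockout 2, 3 and 5 and wild type 2, as had 14.7% of all tested genes. Basal cell genes, all 7 tested, had a median of -0.26 (-0.095 without knockout 2, 3 and 5). All 7 were below 0, as were 51.7% of all tested genes. Among them were the connexin gene Gjb6 at -0.26 (adjusted p = 0.217, edgeR) and the glucose transporter gene Slc2a1 at -0.38 (adjusted p = 0.233).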

How the data were processed

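The authors deposited raw read counts per Entrez gene for 10 libraries, and no column was left unmapped. The submitters' processing notes name HISAT2, featureCounts, limma and mm10, without saying which did what. The sources used here do not give the annotation or the strand setting. Symbols and positions (25275 IDs matched) were read from RefSeq for GRCm38, which is the same assembly as mm10, and GENCODE M21 gave lengths. The counts were tested with edgeR 4.0.16 in R 4.3.3 (quasi-likelihood test, TMM scaling, filterByExpr at count 10 and total count 15), with the group as the only term and Benjamini-Hochberg adjustment over all 16018 tested genes. Standard errors are the size of the log2 fold change over the square root of F. The log2 CPM of correlations used a prior count of 2 reads. The fit was tested on simulated counts. Alternatives were other scalings and filters, DESeq2 1.42.0, limma-voom (limma 3.58.1), the replicate number as a block, covariates and left-out libraries.

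Library totals were 16.6 M to 19.4 M counts. The genes and lists were chosen with earlier results of these data known. Named are the 10 genes, Pknox2, up to 4 called genes or else the 2 with the smallest p of each list, and the 8 genes most like the pigment genes. Kitl, Edn3, Kcnj10, Kcnj13, Oca2, Mc1r, Slc24a5, Otof, Kcnq1, Fcer1a, Rpe65 and Rgr were added for their roles, and some genes that the rule names are not reported here. The promoters were to be shown if the pigment genes varied together. They did not, and those of the tyrosinase family are shown for their shared element. P-values set the difference between the groups against the spread between these libraries.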

Additional observations from a re-analysis of the deposited data

Results flagged for a closer look

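In groups of 5 libraries, a single library was looked for whose gap to the next exceeded 0.71 of the group's range. Of 78 groups (39 genes), 7 had one, and chance flags about 1 group in 20. None was among the 10 melanocyte genes. Kcnj10 was at 144 CPM in wild type 2, against 196 to 205 CPM in the other wild-type libraries. Egfl7 was at 80.4 CPM in wild type 2, against 61.2 to 63.0 CPM. Ncmap was at 53.8 CPM in knockout 3, against 66.7 to 69.0 CPM, and Pmp22 at 2594 CPM in wild type 4, against 2088 to 2211 CPM. The Y-linked Eif2s3y was at 62.4 CPM in knockout 1, against 0 to 3.66 CPM in the other knockout libraries, and at 31.5 CPM in wild type 5, against 62.9 to 70.9 CPM. The Y-linked Uty was at 29.9 CPM in knockout 1, against 0 to 2.19 CPM.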

How the results depend on the processing

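The count of melanocyte genes called, and that of pathway genes called, was 0 in every one of the 20 alternatives. Of 180 log2 fold changes of the 9 genes under alternatives, 168 kept their sign and 12 reversed it, and none became called. Without knockout 2, 3 and 5, Tyr had 0.23, Mlana -0.43 and Mitf 0.15. With the first component as a covariate they had 0.22, -0.36 and 0.11, and with Y-linked expression Tyr had 0.16. When single libraries were left out, Ednrb ran from -0.11 (without knockout 4) to 0.17, Pax3 from -0.10 (without knockout 1) to 0.39 and Mitf from -0.18 to 0.04 (without knockout 5), and Ednrb was also below 0 without knockout 1 or wild type 2. The number of genes called over the whole table moved from 3 to 331 with DESeq2, to 1 with the replicate block, with Y-linked expression, with the first component or without knockout 2, 3 and 5, and to between 1 and 166 when single libraries were left out, the highest without knockout 1. The cause was not tested. Libraries of the same replicate number had correlations of their deviations from -0.383 to 0.51, and not every library was closest to its own number, so the numbers were not taken to pair them. Under the block Kit had -0.38 (adjusted p = 0.17). Low counts limit what can be said of Tyrp1, Oca2 and Mc1r.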

Other observations

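Gpnmb, a melanosomal glycoprotein gene on the list of melanosomal proteins that osteoclasts and macrophages also express, was among the genes that followed Dct and Slc45a2 most closely (r = 0.91, rho = 0.81 over 10 libraries). This pairing of Dct with Slc45a2 was chosen after their values were seen, and the correlations are descriptions without a test. Tmem116 (r = 0.94) and Etnppl (r = 0.90) were the other closest genes. Etnppl was at 27.0 ± 6.35 CPM in wild type and 18.4 ± 2.38 CPM in knockout (SD, n = 5 each), a log2 difference of -0.55 (SE 0.166, adjusted p = 0.214, edgeR).

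For the mean of the pigment and melanosome genes without Tyrp1, also chosen after the data were seen, the closest genes included Bsnd, the barttin subunit gene of chloride channels (r = 0.91), and Kcne1, the partner of KCNQ1 (r = 0.86). Bsnd and Kcne1 stand on the marginal cell list used here.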
